A study of Mus musculus with 20 samples.

Results

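The change of gene expression in the mouse superior olivary complex (SOC) between birth and early hearing was measured by comparing RNA sequencing libraries of postnatal day 16 (P16) with libraries of postnatal day 0 (P0). The comparison used the 7 libraries whose sample titles name the SOC at P0 (4 libraries) or at P16 (3 libraries), of 20 libraries in the series. The mice were untreated wild-type C57Bl6/J animals of both sexes, and each library pooled the tissue of several animals, fewer at P16 than at P0. P0 mice were killed by decapitation and P16 mice by CO2 followed by decapitation. At both ages the isolated brain was frozen and the SOC region was cut out of it on a cryostat, in contrast to the SOC libraries of embryonic day 16 (E16), which were cut from whole frozen heads and entered here only to share the estimate of the spread. Total RNA was depleted of ribosomal RNA and sequenced with a strand-preserving kit. The labels call the samples neuronal, but genes of glia and vessels had high counts in all 7 libraries, so the values are those of a whole tissue piece.

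The SOC is a group of nuclei in the auditory brainstem that receives input from both ears and computes where a sound comes from, by comparing its time of arrival and its loudness between the ears. Its principal cells receive very large excitatory terminals and strong glycinergic inhibition, fire at high rates with high precision, and send and receive thickly myelinated axons. In mice the ear canal opens and hearing begins between the ages compared here, after a period in which the circuit is wired and spontaneous activity drives it.

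Of 15917 genes tested, 1352 (8.49%) were higher at P16 and 1483 (9.32%) were lower, and over all genes the median log2 fold change was -0.05. A gene was called changed when its adjusted p in edgeR's quasi-likelihood test was below 0.01 and its fold change was over 2.5. All libraries of the higher age also had to lie above all libraries of the lower age. A 0 entered that rule as 0, although it can hide counts, as described below, so ages may overlap where a called gene holds zeros. Log2 fold changes are P16 minus P0 after scaling by trimmed mean of M-values (TMM), so they differ slightly from ratios of the counts-per-million (CPM) values printed beside them. Among protein-coding genes 1237 of 14372 rose and 1356 fell, and among long noncoding RNAs 80 of 895 rose and 87 fell. With offsets that remove each library's dependence on GC content, the split was 1853 higher against 1097 lower and the median of all genes moved to 0.22, so that 62.8% of the calls in that fit were higher, against 47.7% without these offsets. A gene that was not called can still differ between the ages, by less than 2.5-fold or with libraries that overlap, and a bare value in parentheses after a gene is its log2 fold change. Genes were grouped into 41 lists by cell type or role, chosen with earlier results of these data known. Their 704 distinct tested members included 301 (42.8%) called in either direction, against 17.8% of all genes. The way the lists were chosen can by itself raise their share. Counts of each list are to be read beside the 8.49% of all genes that rose and the 9.32% that fell. In bulk tissue, fewer cells of a type and less RNA per cell cannot be told apart.

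**Figure D1:**
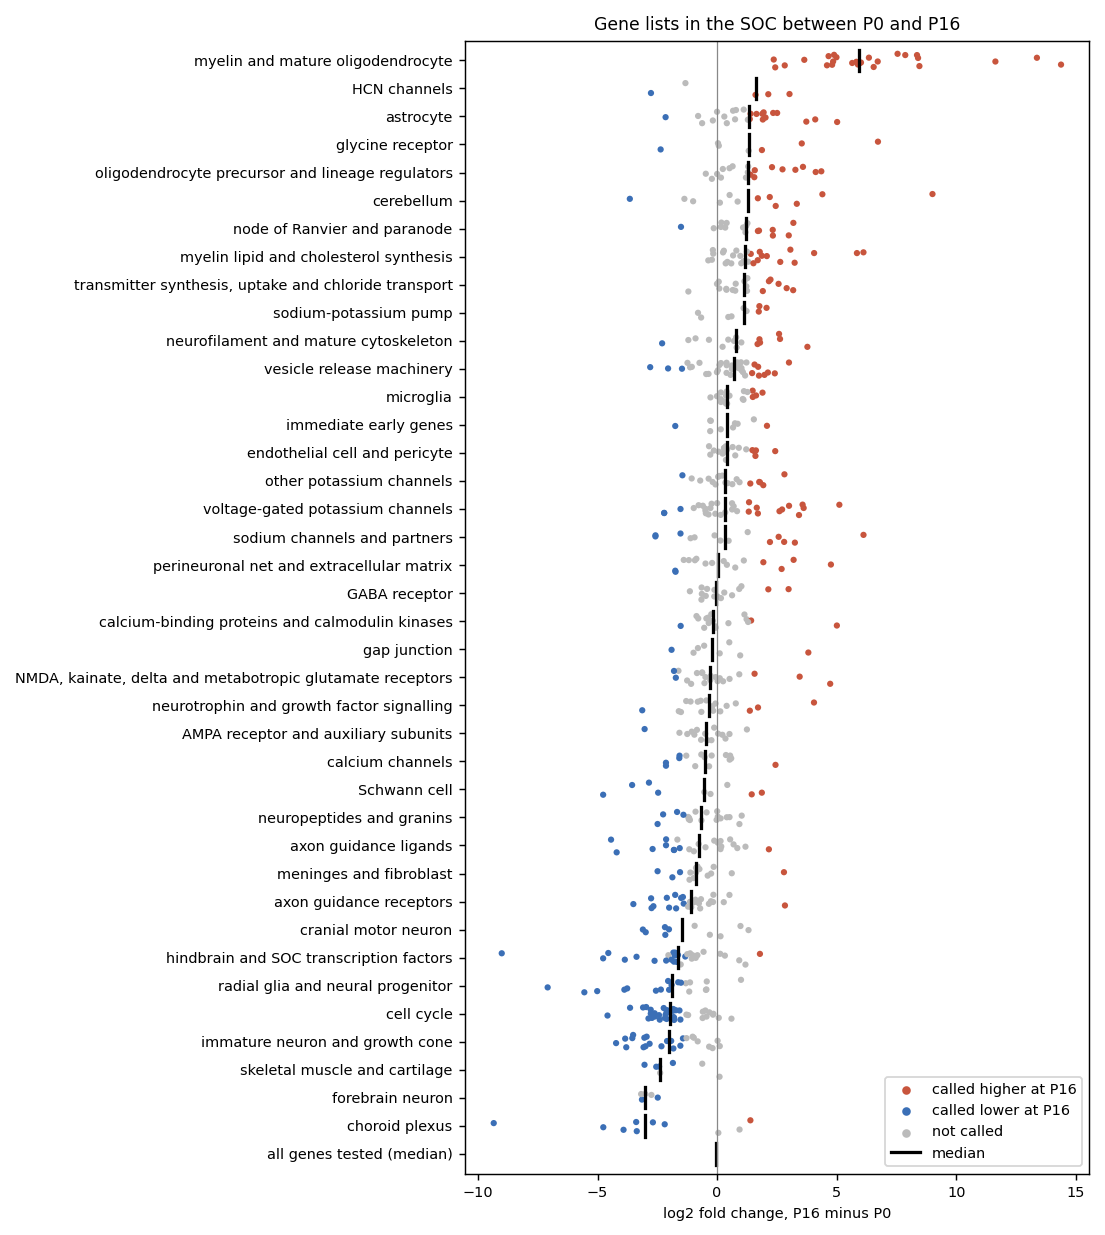
Log2 fold changes (P16 minus P0) of the tested members of each gene list except the erythroid and the sex-linked one. Each small point is a gene, coloured where it was called higher or lower, the black bar is the list's median, and the bottom line gives the median of all 15917 genes. All 26 members of the myelin list lie to the right of 0 and were called, whereas none of the cell cycle, immature neuron and radial glia members was called higher.

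The libraries held 20843679 to 28048053 counts each, and a pair of technical features touches several results. By its pattern of zeros and lowest counts, the table was joined from 3 sets of libraries that were filtered separately, P0 replicates 1 to 3 in the first set, P0 replicate 4 with P16 replicates 1 and 2 in the second, and P16 replicate 3 alone, so that a 0 can stand for up to 20 counts; 152 of the genes called higher and 343 of those called lower had such a 0 in at least 1 library. Of the 1352 genes called higher, 1027 (76.0%) also differed by more than 2.5-fold within the second set, and of the 1483 called lower 1255 (84.6%) did. These shares are no separate test, since the calls used the same libraries and their rule fixed the direction. The ratios rest on 1 P0 library and on CPM without TMM scaling. Leaving out that scaling makes rises smaller and falls larger, so the 2 shares are not comparable. P0 replicate 4 and P16 replicate 3 stood apart from the other libraries of their age on the second principal component (3.32% of the variance of the 500 most variable genes, against 94.3% on the first, which separated the ages). P0 replicate 4 had more counts of forebrain neuron markers, which summed to 63.6, 74.6, 63.8 and 386 CPM at P0 and 16.1, 18.0 and 21.2 CPM at P16. P16 replicate 3 had the most counts of cerebellum markers, which summed to 274, 261, 253 and 294 CPM at P0 and 455, 356 and 646 CPM at P16. Each library's deviations from the mean of its age also correlated with GC content across 14570 genes (Spearman). The correlations were 0.46 to 0.53 in P0 replicates 1 to 3 and 0.72 in P16 replicate 3. They were -0.74 in P0 replicate 4, and -0.64 and -0.53 in P16 replicates 1 and 2. The cause of this split was not tested. Without P0 replicate 4, 1443 genes were called higher and 1632 lower, and without P16 replicate 3 the counts were 1460 and 1728. Without both they were 1581 and 1934. Once P0 replicate 4 is left out, no set holds libraries of both P0 and P16. Set and age cannot be told apart in those fits.

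**Figure D2:**
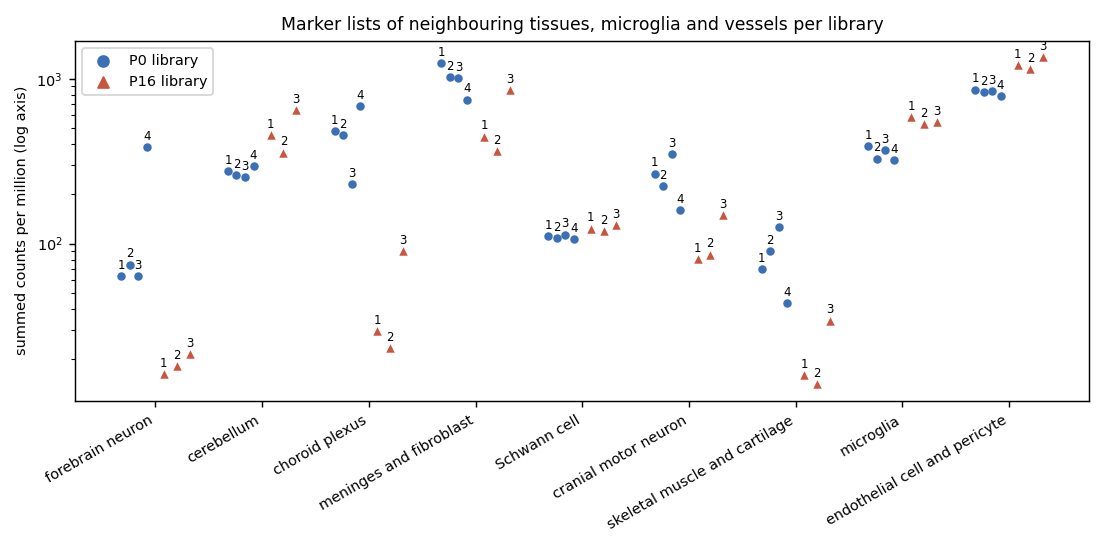
Summed CPM (log axis) of marker lists of neighbouring tissues, microglia and vessels in the 7 libraries. Circles are P0 and triangles are P16 libraries, each labelled by its replicate number. Forebrain markers are highest in P0 replicate 4 and cerebellum markers highest in P16 replicate 3, and choroid plexus markers are lower in all P16 libraries than in all P0 libraries.

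Of the 41 lists, that of myelin and mature oligodendrocytes, the cells that wrap central axons, had the highest median. All 26 of its genes rose, against 8.49% of all genes, with a median log2 fold change of 5.92 (5.85 with zeros set to the count a 0 can hide), and together they went from 479 to 917 CPM at P0 to 50269 to 54774 CPM at P16. Mbp, the basic protein that holds the cytoplasmic faces of the membrane together, had 149, 156, 232 and 94.9 CPM at P0 and 11739.5, 12438 and 12652 CPM at P16 (log2 fold change 6.55 with SE 0.31, adjusted p = 2.09e-08). It was already detected at birth in every library, and its lowest P16 value exceeded its highest P0 value many times over. Genes of the inner adaxonal layer rose too, with Mag, a receptor for axonal ligands, at 27.6, 25.8, 39.9 and 13.6 CPM at P0 and 1012, 1109 and 1890.0 CPM at P16 (log2 fold change 5.89 with SE 0.34, adjusted p = 9.33e-08). Cnp, an early enzyme of myelinating cells, had 131, 128, 168 and 69.8 CPM at P0 and 2228, 2279.5 and 3039.9 CPM at P16 (log2 fold change 4.59 with SE 0.24, adjusted p = 3.96e-08). Its rise was smaller on the log2 scale than those of Mobp (8.40), which encodes a late component of compact myelin, and Mal (7.87), a membrane-sorting protein.

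Opalin, Klk6 and Mog, picked with their values in view, were at or near 0 at birth. Opalin (chr19:41061710-41077113 in mm10), a membrane protein typical of mature oligodendrocytes, had 0 counts in all P0 libraries and 91.6 to 107 CPM at P16, at least 137-fold higher when the zeros are set to 20 counts in the libraries that joining can have emptied and to 3 counts in the other. Klk6, a serine protease of the same cells, was likewise at 0 in all P0 libraries and at 43.6 to 55.0 CPM at P16, at least 67.9-fold higher. Mog, the outermost glycoprotein of the sheath, had 0, 0, 0 and 0.794 CPM at P0 and 624, 597 and 623 CPM at P16. The smallest change of the list belonged to Nkx6-2, a transcription factor of the lineage, with 10.1, 11.2, 10.5 and 4.27 CPM at P0 and 34.6, 35.2 and 47.1 CPM at P16 (log2 fold change 2.37 with SE 0.25, adjusted p = 9.1e-06). Pllp and Carns1 overlap genes on the opposite strand over 54.2% and 40.3% of their exons, and since the strand setting of the counting is not given in the sources used here, their values are uncertain.

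Regulators and precursor genes of the same lineage were called in part. Of 19 listed genes 9 rose and none fell (median 1.30). Myrf, the transcription factor that switches on myelin genes, had 1.68, 3.42, 4.92 and 1.06 CPM at P0 and 38.4, 43.1 and 61.5 CPM at P16 (log2 fold change 4.36 with SE 0.38, adjusted p = 2.05e-06). Enpp6, a choline phosphodiesterase of newly formed oligodendrocytes, had 13.2, 14.1, 21.7 and 13.6 CPM at P0 and 234, 226 and 222 CPM at P16 (log2 fold change 4.12 with SE 0.24, adjusted p = 1.06e-07). Both genes were low at birth in every library. By contrast Pdgfra, the growth factor receptor of oligodendrocyte precursors, had 240.3, 245, 259 and 245 CPM at P0 and 194, 215 and 212 CPM at P16, which became level after TMM scaling (log2 fold change 0.00 with SE 0.13, adjusted p = 0.995). Cspg4, the proteoglycan NG2 of the same precursors, stood at -0.22 (SE 0.36, adjusted p = 0.633), and neither was called. Olig2 (0.52) and Sox10 (1.30, SE 0.38, adjusted p = 0.0131), which mark all stages of the lineage, did not pass the test either.

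**Figure D3:**
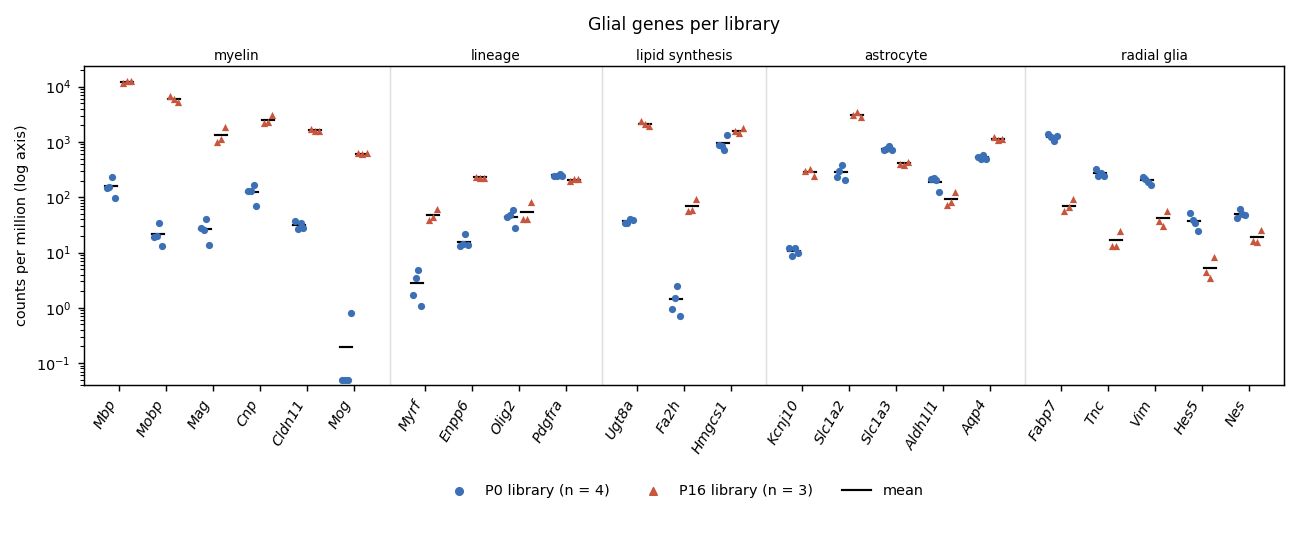
CPM per library (log axis) of glial genes, with P0 libraries as circles, P16 libraries as triangles and black bars at the mean of each age. Myelin genes (Mbp to Mog) are far higher in every P16 library, Pdgfra differs little between the ages, astrocyte genes differ from each other, and Fabp7, Tnc, Vim and Hes5 are lower in every P16 library. Zeros are drawn at the lower edge.

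Several enzymes that make myelin lipids rose, whereas most genes of the cholesterol pathway were not called. Of 28 listed genes 12 rose and none fell (median 1.18). Ugt8a, which makes galactosylceramide, had 34.3, 33.7, 40.9 and 38.2 CPM at P0 and 2388, 2066 and 1919 CPM at P16 (log2 fold change 6.12 with SE 0.34, adjusted p = 5.7e-08). Fa2h, which hydroxylates the fatty acids of these lipids, had 0.960, 1.53, 2.53 and 0.718 CPM at P0 and 55.7, 58.8 and 94.2 CPM at P16 (log2 fold change 5.85 with SE 0.35, adjusted p = 1.08e-07). Fa2h was near the limit of detection at birth, whereas Ugt8a was not. Cers2, the ceramide synthase for very long chains, rose by 3.06, and the elongases Elovl1 and Elovl7 rose by 3.24 and 4.06 on the log2 scale. In the cholesterol pathway Sc5d (1.87) and Msmo1 (1.78), which act on sterol intermediates, rose. Hmgcs1, an early enzyme of the pathway, had 871, 840.1, 708 and 1339 CPM at P0 and 1549, 1477 and 1758 CPM at P16 and was not called (log2 fold change 1.01 with SE 0.22, adjusted p = 0.00187). Sqle (0.59) and Fdft1 (0.28) were not called either. The call of Msmo1 was lost when the set of libraries entered the fit as a term (1.30, adjusted p = 1.77e-05, under 2.5-fold).

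Astrocyte genes rose more often than they fell, while several general markers of these cells were not called. Of 24 listed genes 12 rose, against 8.49% of all genes, and 1 fell (median 1.33), and the list summed to 4327 to 6937 CPM at P0 and 13926 to 14740.0 CPM at P16. Kcnj10, the inward rectifier Kir4.1 that clears extracellular potassium, had 12.1, 8.78, 12.2 and 9.83 CPM at P0 and 293, 326 and 247 CPM at P16 (log2 fold change 5.02 with SE 0.25, adjusted p = 2.7e-08). Slc1a2, the main glutamate transporter of mature astrocytes, had 237, 303, 382 and 209 CPM at P0 and 3122, 3409.5 and 2791 CPM at P16 (log2 fold change 3.73 with SE 0.24, adjusted p = 1.87e-07). P16 replicate 3 had the lowest P16 value of both genes. Slc1a3, the glutamate transporter that radial glia also carry, had 707, 748, 833 and 719 CPM at P0 and 398, 388 and 437 CPM at P16 and was not called (log2 fold change -0.63 with SE 0.13, adjusted p = 0.00139). Aldh1l1, a folate enzyme used as a general astrocyte marker, stood at -0.79 and Sox9, a transcription factor of the lineage, at 0.30, also without a call. S100b (4.10), a calcium-binding protein that oligodendrocytes also express, the intermediate filament gene Gfap (2.34) and the connexin gene Gjb6 (2.51) rose. Aqp4, the water channel of astrocyte endfeet, rose by 1.37 (SE 0.21, adjusted p = 0.000191). Without P16 replicate 1 it missed the fold threshold (1.29, adjusted p = 0.00101). Its call was also lost with upper-quartile factors and with the set of libraries as a term. Mfge8, a secreted bridging protein, fell (log2 fold change -2.15).

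Genes of radial glia and progenitors moved the other way. Of 19 listed genes 12 fell, against 9.32% of all genes, and none rose (median -1.90, -1.63 with zeros set to the count they can hide). With GC-adjusted offsets the median was -1.26 and 9 fell. Fabp7, the brain lipid-binding protein of radial glia, had 1375, 1232, 1044 and 1258 CPM at P0 and 55.7, 65.3 and 91.0 CPM at P16 (log2 fold change -3.88 with SE 0.20, adjusted p = 3.22e-08). Tnc, a matrix protein of the same cells, had 318, 242, 275 and 245 CPM at P0 and 13.1, 13.3 and 24.5 CPM at P16 (log2 fold change -3.76 with SE 0.21, adjusted p = 7.81e-08). Both kept more counts in P16 replicate 3 than in the other P16 libraries. Vim, an intermediate filament gene, Hes5, an effector of Notch signalling, and Pax6, a progenitor transcription factor, fell by 2.05, 2.56 and 2.01 on the log2 scale; Hes5 overlaps a gene on the opposite strand over 31.8% of its exons. Igf2bp1, an RNA-binding protein of fetal tissues, had 2.64, 3.37, 2.44 and 4.01 CPM at P0 and 0, 0.162 and 0 CPM at P16, a 9.40-fold fall with each 0 at the count it can hide. Nes, the intermediate filament gene most used as a progenitor marker, had 41.7, 60.4, 50.5 and 48.1 CPM at P0 and 16.1, 15.3 and 25.6 CPM at P16 and was not called (-1.16, SE 0.23, adjusted p = 0.00122).

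Some genes of microglia and vessels rose. Of 19 microglial genes 4 rose and none fell (median 0.42, 0.81 with GC-adjusted offsets), and of 20 genes of endothelial cells and pericytes 5 rose and none fell (median 0.40, 0.76 with these offsets). P2ry12, the purinergic receptor of resting microglia, had 16.2, 12.9, 15.9 and 20.3 CPM at P0 and 56.2, 54.1 and 41.5 CPM at P16 (log2 fold change 1.90 with SE 0.29, adjusted p = 0.000188). Tmem119, another gene of mature microglia, rose by 1.63 and Siglech, a sialic acid receptor, by 1.49, whereas the complement genes C1qa, C1qb and C1qc stood at 0.30, 0.16 and 0.16 without a call. With GC-adjusted offsets 7 microglial genes were called higher. In vessels Abcb1a, the drug efflux pump of the blood-brain barrier, had 31.0, 27.4, 32.3 and 33.0 CPM at P0 and 89.1, 79.4 and 68.9 CPM at P16 (log2 fold change 1.62 with SE 0.20, adjusted p = 2.62e-05). Mfsd2a, the transporter of omega-3 lipids across the barrier, rose by 1.60, while Cldn5, a tight junction protein (-0.29), and Pecam1, a general endothelial marker (0.42), were not called.

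Most cell division genes fell. Of 40 listed genes 29 fell and none rose (median -1.95). Top2a, the topoisomerase of dividing cells, had 65.3, 74.3, 44.7 and 110.1 CPM at P0 and 6.64, 7.41 and 13.6 CPM at P16 (log2 fold change -2.77 with SE 0.32, adjusted p = 1.67e-05). Mki67, the proliferation antigen Ki-67, had 31.2, 52.0, 34.0 and 40.8 CPM at P0 and 5.77, 5.75 and 9.88 CPM at P16 (log2 fold change -2.23 with SE 0.23, adjusted p = 6.99e-06). Counts remained at P16 in every library for both. Ccnb1 and Ccnb2, cyclins of mitosis, had log2 fold changes of -2.87 and -2.72, and Mcm6 and Mcm3, parts of the replicative helicase, of -2.60 and -1.83. Among the genes not called were Ccnd1 (-0.17, with 23.4% of its exons under a gene on the opposite strand) and Pcna (-0.15), which have roles beyond division, and the regulator E2f1 (-0.32).

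Because these genes fell together, their promoters were read from RefSeq (GRCm38.p6, 250 bases before to 50 bases after each start) and searched on both strands for motifs known from cell cycle promoters. The motifs were CCAAT (NF-Y box), TTTGAA (cell cycle homology region, CHR) and TTTCCCGC or TTTGGCGC (E2F site). Of the 29 genes called lower, 25 matched the table, with 26 promoters. The CCAAT box was in 21 of these promoters (80.8%) against 37.4% of all 32851 promoters, the CHR letters in 14 (53.8% against 17.9%) and the E2F letters in 4, those of Mcm3, Mcm5, Mcm6 and Mcm7 (15.4% against 1.56%). A match of letters is a description and not a binding site. Shown here are the promoters with the most CHR and CCAAT matches and that with the most E2F matches; capitals mark the motif letters on either strand, so ATTGG is CCAAT and TTCAAA is TTTGAA read from the other strand, and in Cdca8 a CHR and a CCAAT match share 1 base.
Top2a, chr11:99024140-99024439, minus strand: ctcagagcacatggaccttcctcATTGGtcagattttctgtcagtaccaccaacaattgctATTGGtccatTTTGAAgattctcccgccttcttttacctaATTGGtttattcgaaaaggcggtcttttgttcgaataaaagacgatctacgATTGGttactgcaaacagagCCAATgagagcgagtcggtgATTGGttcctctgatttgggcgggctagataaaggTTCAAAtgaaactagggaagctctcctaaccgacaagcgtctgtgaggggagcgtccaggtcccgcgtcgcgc
Ccnb2, chr9:70421505-70421804, minus strand: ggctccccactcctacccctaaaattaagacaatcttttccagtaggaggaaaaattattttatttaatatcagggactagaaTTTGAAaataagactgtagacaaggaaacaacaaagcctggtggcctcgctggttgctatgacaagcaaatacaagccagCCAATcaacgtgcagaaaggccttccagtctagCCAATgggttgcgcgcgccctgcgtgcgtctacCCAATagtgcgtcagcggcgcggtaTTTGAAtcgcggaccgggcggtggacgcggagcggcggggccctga
Cdca8, chr4:124936868-124937167, minus strand: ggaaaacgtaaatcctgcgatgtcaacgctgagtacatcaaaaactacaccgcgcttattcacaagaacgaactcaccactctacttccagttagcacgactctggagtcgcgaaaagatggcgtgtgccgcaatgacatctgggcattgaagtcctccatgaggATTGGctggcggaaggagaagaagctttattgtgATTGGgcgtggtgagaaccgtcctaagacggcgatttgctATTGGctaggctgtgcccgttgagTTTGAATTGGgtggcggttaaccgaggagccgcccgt
Mcm3, chr1:20820263-20820562, minus strand: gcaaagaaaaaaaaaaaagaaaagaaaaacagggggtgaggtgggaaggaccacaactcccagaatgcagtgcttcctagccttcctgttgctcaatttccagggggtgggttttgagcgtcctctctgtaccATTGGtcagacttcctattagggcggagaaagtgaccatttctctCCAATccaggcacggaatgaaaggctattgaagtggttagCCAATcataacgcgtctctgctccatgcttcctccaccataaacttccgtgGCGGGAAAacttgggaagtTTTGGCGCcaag

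For comparison the 28 lipid and cholesterol genes were searched for the sterol regulatory element in the form TCACNCCAC, on both strands. Of these, 21 genes matched the table with 28 promoters, and the letters were found in 1 of them (3.57%, against 1.24% of all promoters), that of Hmgcs1, which was not called. The cell cycle motifs were also searched in these promoters. The CCAAT box was in 21 of the 28 (75.0%), and in 10 of 14 promoters of the listed genes called higher (71.4%). Its high share was thus not particular to the genes that fell. The CHR letters were in 1 of the 28 promoters (3.57%) and the E2F letters in 0. Capitals mark the match of the sterol regulatory element only.
Hmgcs1, chr13:119690101-119690400, plus strand: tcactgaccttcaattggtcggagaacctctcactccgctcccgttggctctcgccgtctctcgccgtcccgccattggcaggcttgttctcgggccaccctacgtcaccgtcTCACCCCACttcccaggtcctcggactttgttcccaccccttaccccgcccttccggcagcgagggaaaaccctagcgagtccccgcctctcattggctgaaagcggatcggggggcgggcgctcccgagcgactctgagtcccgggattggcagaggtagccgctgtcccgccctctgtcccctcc

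Most genes of young neurons and growing axons fell. Of 24 genes of immature neurons 16 fell and none rose (median -2.01). Dcx, the microtubule protein of migrating neurons, had 305, 340.3, 314 and 544 CPM at P0 and 22.5, 23.7 and 21.7 CPM at P16 (log2 fold change -3.80 with SE 0.37, adjusted p = 4.52e-06). Gap43, the growth cone protein, had 963, 1019, 952 and 787 CPM at P0 and 79.1, 82.0 and 125 CPM at P16 (log2 fold change -3.04 with SE 0.20, adjusted p = 2.08e-07). Tubb2b, a tubulin of the developing brain, had 2353, 2067, 1843 and 2113 CPM at P0 and 75.6, 74.9 and 136 CPM at P16 (log2 fold change -4.22 with SE 0.20, adjusted p = 2.26e-08). Dcx was highest in P0 replicate 4, the library with the most forebrain markers, whose part in that value was not tested. Tubb3, the neuronal tubulin, had a log2 fold change of -1.28 (SE 0.14, adjusted p = 1.28e-05) and Map1b one of -0.33, neither called.

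In the list of neurofilaments and mature cytoskeleton 6 of 16 genes rose and 1 fell (median 0.81, 1.39 with GC-adjusted offsets). Nefh, the heavy neurofilament subunit of large axons, had 134, 164, 209 and 61.8 CPM at P0 and 606, 676 and 869.7 CPM at P16 (log2 fold change 2.59 with SE 0.31, adjusted p = 2.81e-05). The light and medium subunits Nefl (0.47, 32.8% antisense overlap) and Nefm (1.01) were not called; whether they differed from the heavy subunit was not tested. Tppp, a microtubule protein of oligodendrocytes, rose by 3.78, Tubb4a, a tubulin of neurons and oligodendrocytes, by 2.63, and Map1a, a dendritic microtubule protein, by 1.77. Mapt, which encodes tau, fell: 1297, 1483, 1396 and 1112 CPM at P0 and 194, 216 and 268 CPM at P16 (log2 fold change -2.30 with SE 0.18, adjusted p = 7.21e-07).

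Genes of the nodes of Ranvier, where action potentials are regenerated between myelin segments, rose in part. Of 16 listed genes 6 rose and 1 fell (median 1.2). Nfasc, the adhesion molecule that assembles nodes and paranodes, had 82.1, 105, 139 and 44.6 CPM at P0 and 460.2, 529 and 887 CPM at P16 (log2 fold change 3.00 with SE 0.38, adjusted p = 4.17e-05). Cntnap1, its partner on the axon at the paranode, had 31.0, 35.4, 52.7 and 13.6 CPM at P0 and 103, 133 and 186 CPM at P16 (log2 fold change 2.33 with SE 0.33, adjusted p = 0.000102). Cntn1, which completes that complex (0.40), Cntnap2 of the juxtaparanode (0.16) and the nodal scaffold Ank3 (1.19) were not called.

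The perineuronal net, a matrix around fast-firing neurons, was represented by 16 genes with a median of 0.03 (-0.07 with upper-quartile scaling and -0.14 without P16 replicate 3), of which 4 rose and 2 fell. Hapln4, the link protein of brainstem nets and nodes, had 2.02, 3.51, 4.48 and 1.32 CPM at P0 and 55.4, 62.4 and 74.3 CPM at P16 (log2 fold change 4.76 with SE 0.36, adjusted p = 6.02e-07). Acan, the core proteoglycan aggrecan, had 5.71, 5.96, 9.97 and 3.55 CPM at P0 and 27.8, 36.7 and 37.8 CPM at P16 (log2 fold change 2.70 with SE 0.30, adjusted p = 1.42e-05). Hapln1 (3.20), another link protein, and Tnr (1.93), which crosslinks the net, also rose, while the proteoglycans Vcan (-0.48) and Bcan (0.41) were not called. Chsy1, a synthase of chondroitin sulfate chains, fell by 1.74 on the log2 scale.

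Axon guidance genes fell more often than they rose. Of 23 ligands 8 fell and 1 rose (median -0.77; with GC-adjusted offsets 5 fell and 2 rose, median -0.24), and of 27 receptors 11 fell and 1 rose (median -1.08). Draxin, a repulsive ligand of the midline, had 25.3, 29.9, 24.2 and 28.5 CPM at P0 and 0.637, 0.689 and 2.39 CPM at P16 (log2 fold change -4.20 with SE 0.45, adjusted p = 9.81e-06). Ntn1, the attractant netrin-1, had 151, 142, 148 and 73.8 CPM at P0 and 16.5, 16.6 and 42.4 CPM at P16 (log2 fold change -2.13 with SE 0.36, adjusted p = 0.000391). Robo3, the receptor that lets commissural axons cross the midline in the auditory brainstem, had 1.63, 2.31, 1.24 and 1.40 CPM at P0 and 0.0796, 0.284 and 0 CPM at P16, a 4.59-fold fall with the 0 set to 20 counts. Draxin and Ntn1 kept more counts in P16 replicate 3 than in the other P16 libraries, and without it Draxin stood at -5.02, adjusted p = 5.11e-06. The ephrin Efnb1 (-2.70) and the receptors Epha8 (-2.66, or -3.37, adjusted p = 0.000178, without P16 replicate 3), Ephb2 (-2.10) and Plxna3 (-2.76) fell too. The ligand gene Sema3d and the netrin receptor gene Unc5b rose, by 2.16 and 2.84. Slit2 (0.03), Robo1 (-0.71), the netrin receptor gene Dcc (-1.08) and Epha4 (-0.97), which takes part in sorting of auditory inputs, were not called.

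Transcription factors that pattern the hindbrain also fell more often than they rose. Of 29 listed genes 15 fell and 1 rose (median -1.63, -1.52 with zeros at the count they can hide). Atoh1, the proneural factor of the rhombic lip from which many auditory neurons arise, had 3.36, 3.84, 2.44 and 1.85 CPM at P0 and 0, 0 and 0 CPM at P16, at least 9.03-fold lower with the zeros at 20 counts in P16 replicate 3 and at 3 counts in the other libraries. Hoxa2, which patterns the rhombomeres that give rise to auditory nuclei, had 9.16, 13.3, 12.8 and 8.24 CPM at P0 and 2.35, 2.92 and 2.75 CPM at P16 (log2 fold change -1.77 with SE 0.20, adjusted p = 1.43e-05). Meis1, a Hox cofactor, fell too (-1.68). Rora, a nuclear receptor, rose: 53.2, 62.8, 58.9 and 54.7 CPM at P0 and 176, 172 and 147 CPM at P16 (log2 fold change 1.79 with SE 0.16, adjusted p = 2.32e-06). Esrrg (1.19), Esrrb (0.33), En1 (-0.57) and Onecut2 (0.13) were not called.

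At synapses, most genes of the release machinery were not called, and some paralogs moved apart. Of 38 genes of the vesicle release machinery 8 rose (21.1%, against 8.49% of all genes) and 3 fell (7.89%, against 9.32%). The list's median was 0.71. Syt2, the fast calcium sensor of brainstem terminals, had 117, 133, 179 and 70.7 CPM at P0 and 473, 532 and 666 CPM at P16 (log2 fold change 2.41 with SE 0.25, adjusted p = 7.46e-06). Syt1, the sensor of forebrain terminals, had 289, 336, 332 and 355 CPM at P0 and 284, 317 and 236 CPM at P16 and was not called (0.03, SE 0.17, adjusted p = 0.882). Per exon length, the mean level of Syt2 moved from 16.3 to 72.9 RPKM and that of Syt1 from 39.3 to 33.5 RPKM (CPM per kilobase of exon). Vamp1, the vesicle SNARE of hindbrain terminals, had 78.0, 92.0, 118 and 49.7 CPM at P0 and 544, 546 and 606 CPM at P16 (log2 fold change 3.00 with SE 0.24, adjusted p = 1.16e-06), while its paralog Vamp2 stood at 0.80 without a call. Among target-membrane SNAREs Snap25 rose (2.12) and Stx1a fell, at 93.4, 80.8, 83.2 and 61.6 CPM at P0 and 6.53, 7.01 and 15.8 CPM at P16 (log2 fold change -2.80 with SE 0.28, adjusted p = 6.84e-06). The complexin gene Cplx1 rose by 1.98, and the priming factor genes Unc13b and Doc2b had log2 fold changes of -1.47 and -2.05. With GC-adjusted offsets 13 genes of the list were called higher and 3 lower.

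Of 19 genes of transmitter synthesis, uptake and chloride transport 6 rose and none fell (median 1.14). Slc6a5, the neuronal glycine transporter GlyT2 that fills inhibitory terminals, had 75.5, 93.4, 115 and 51.9 CPM at P0 and 540.1, 572 and 449 CPM at P16 (log2 fold change 2.91 with SE 0.34, adjusted p = 2.31e-05). Slc17a7, the vesicular glutamate transporter VGLUT1, had 8.40, 12.6, 13.7 and 13.3 CPM at P0 and 60.7, 57.7 and 60.8 CPM at P16 (log2 fold change 2.57 with SE 0.19, adjusted p = 5.84e-07). VGLUT2, encoded by Slc17a6, had 401, 416, 408 and 386 CPM at P0 and 375, 396 and 277 CPM at P16 and was not called (0.07, SE 0.20, adjusted p = 0.796), and VGLUT3, encoded by Slc17a8, stood at -1.2 (SE 0.25, adjusted p = 0.00152). Chloride transporters set whether glycine and GABA excite or inhibit: Slc12a5 (KCC2), the exporter of mature neurons, had 364, 413, 458 and 182 CPM at P0 and 243, 279.8 and 434 CPM at P16 and was not called (0.09, SE 0.31, adjusted p = 0.821). Slc12a2 (NKCC1), the importer, which oligodendrocytes and astrocytes also carry, had 89.3, 93.4, 92.2 and 126 CPM at P0 and 826, 802 and 643 CPM at P16 (log2 fold change 3.18 with SE 0.22, adjusted p = 3.69e-07). Gad1 (0.39) and Gad2 (1.25), which make GABA, and the vesicular inhibitory transporter gene Slc32a1 (0.76, 24.9% antisense overlap) were not called.

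Glycine receptor subunits moved in opposite directions. Of 7 listed genes 3 rose and 1 fell (median 1.32, 1.03 with the zeros of Glra4 at the count they can hide). Glra1, the alpha subunit of the adult receptor, had 6.62, 9.20, 12.8 and 3.52 CPM at P0 and 64.5, 76.2 and 93.8 CPM at P16 (log2 fold change 3.54 with SE 0.39, adjusted p = 1.2e-05). Glra2, the alpha subunit of the fetal receptor, had 189.6, 169, 164 and 232 CPM at P0 and 28.9, 35.1 and 28.0 CPM at P16 (log2 fold change -2.36 with SE 0.22, adjusted p = 2.87e-06). The order of the alpha subunits turned, from 59.9 RPKM for Glra2 and 3.33 for Glra1 at P0 to 9.73 and 32.4 RPKM at P16. Glrb, the beta subunit that anchors the receptor, rose by 1.87, Glra3 was not called (0.04), and neither was the anchor Gphn (0.07).

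Among GABA receptor genes 2 of 16 rose (12.5%, against 8.49% of all genes) and none fell. The median was -0.05, but 0.09 with GC-adjusted offsets, 0.09 without P0 replicate 4 and 0.11 without P16 replicate 3. The alpha subunit genes Gabra2 (-0.11), Gabra3 (-0.12) and Gabra5 (-1.14) were not called. Gabrd, a subunit of extrasynaptic receptors that cerebellar granule cells carry, had 1.68, 0.693, 1.02 and 2.12 CPM at P0 and 7.16, 5.47 and 15.9 CPM at P16 (log2 fold change 2.99 with SE 0.52, adjusted p = 0.000443). It was highest in P16 replicate 3, the library with the most cerebellum markers, and their part in its value was not tested.

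Glutamate receptors were followed in a pair of lists. No AMPA receptor subunit was called: of 16 listed subunit and auxiliary genes none rose and 1 fell (6.25%, against 9.32% of all genes). The median was -0.45, or -0.14 with GC-adjusted offsets. The fast subunit gene Gria4 had 271, 285, 288 and 287 CPM at P0 and 303, 316 and 282 CPM at P16 (log2 fold change 0.35 with SE 0.16, adjusted p = 0.0779). Gria2, whose subunit makes the receptor impermeable to calcium, stood at -0.67 (SE 0.27, adjusted p = 0.0560), Gria1 at -0.12 and Gria3 at 1.25. Cnih2, an auxiliary protein that slows the receptor, was the called member: 106, 146, 134 and 75.7 CPM at P0 and 8.55, 11.1 and 16.1 CPM at P16 (log2 fold change -3.03 with SE 0.34, adjusted p = 1.41e-05). Without P0 replicate 4, 1 gene of the list was called higher and 3 lower.

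In the list of NMDA, kainate, delta and metabotropic receptors 3 of 21 genes rose (14.3%) and 2 fell (9.52%). Of all genes 8.49% rose and 9.32% fell. The list's median was -0.29, or 0.05 with GC-adjusted offsets. Grin2a, the NMDA subunit of mature synapses, had 37.7, 42.8, 57.7 and 35.9 CPM at P0 and 97.5, 118 and 107 CPM at P16 (log2 fold change 1.57 with SE 0.20, adjusted p = 4.18e-05). Grin2c, a subunit of the cerebellum and of glia, had 3.98, 5.18, 5.32 and 3.18 CPM at P0 and 27.1, 31.3 and 65.4 CPM at P16 (log2 fold change 3.45 with SE 0.27, adjusted p = 8.59e-07). Grin2b, the subunit of immature synapses, had 155, 181, 195 and 213 CPM at P0 and 99.2, 121 and 113 CPM at P16 and was not called (-0.49, SE 0.29, adjusted p = 0.180), nor were Grin1 (0.52) and Grin2d (-1.62). Per exon length Grin2b kept a higher mean level than Grin2a at P0 (7.49 against 2.43 RPKM) and the order at P16 was 4.47 against 5.99 RPKM.

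**Figure D4:**
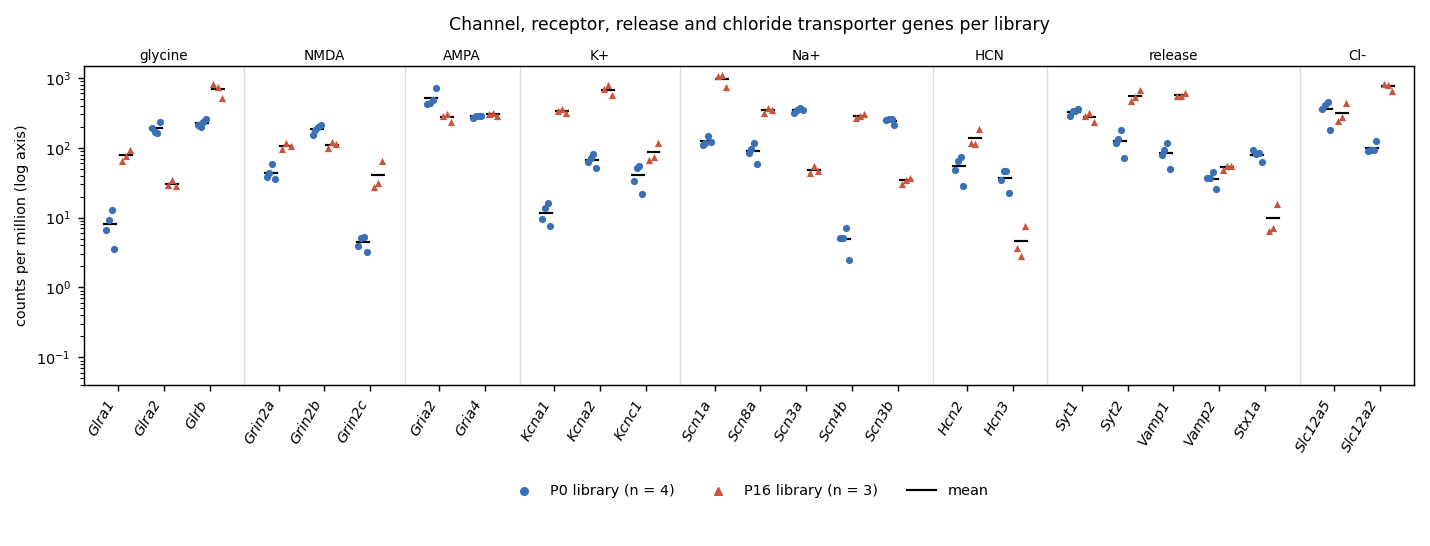
CPM per library (log axis) of channel, receptor and release genes, with P0 libraries as circles, P16 libraries as triangles and black bars at the mean of each age. Within the families shown, Glra1, Scn1a, Kcna1, Syt2 and Vamp1 are higher in every P16 library, whereas Glra2, Scn3a, Hcn3 and Stx1a are lower. Levels are not divided by gene length, so panels compare ages and not genes.

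Potassium channels shorten the action potential and set how precisely a neuron fires. Of 31 genes of voltage-gated potassium channels 11 rose and 3 fell (median 0.34, 0.73 with GC-adjusted offsets). Kcna1, the low-threshold channel Kv1.1, had 9.45, 13.8, 16.1 and 7.64 CPM at P0 and 336, 360.1 and 313 CPM at P16 (log2 fold change 5.11 with SE 0.28, adjusted p = 5.96e-08). Kcna2, its partner Kv1.2, had 61.6, 71.8, 82.3 and 52.1 CPM at P0 and 688, 781 and 572 CPM at P16 (log2 fold change 3.62 with SE 0.24, adjusted p = 2.1e-07). All 3 beta subunits of this family, Kcnab1 (2.72), Kcnab2 (2.61) and Kcnab3 (3.42), rose. Of the high-threshold Kv3 channels Kcnc2 rose by 1.71, and Kcnc4 was not called (-0.23). Kcnc1 (Kv3.1) lay at the threshold: 33.7, 50.6, 55.0 and 21.9 CPM at P0 and 67.9, 74.2 and 115 CPM at P16 (log2 fold change 1.33 with SE 0.35, adjusted p = 0.00721). Its call was lost when any library but P0 replicate 3 was left out, with the lowest value without P0 replicate 4 (1.15, adjusted p = 0.0142). Kcnd2 (-0.98) and Kcna4 (-0.49) were not called, and Kcnh3 (-2.21) and Kcnv1 (-2.21) fell. Of 19 other potassium channel genes 5 rose (26.3%, against 8.49% of all genes) and 1 fell (5.26%, against 9.32%). The median of these genes was 0.35, or 0.84 with GC-adjusted offsets. They were led by the leak channel gene Kcnk1, which rose by 2.82.

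Sodium channel genes also moved in opposite directions. Of 14 listed genes 5 rose and 3 fell (median 0.31, 0.54 with GC-adjusted offsets). Scn1a (Nav1.1) had 111, 117, 146 and 119 CPM at P0 and 1075, 1092 and 741 CPM at P16 (log2 fold change 3.25 with SE 0.25, adjusted p = 7.78e-07). Scn8a (Nav1.6), the channel of mature nodes, had 83.6, 97.0, 117 and 57.6 CPM at P0 and 314, 369 and 344 CPM at P16 (log2 fold change 2.21 with SE 0.24, adjusted p = 1.07e-05). Scn3a (Nav1.3), the channel of fetal neurons, had 316, 347, 369.6 and 348 CPM at P0 and 43.5, 55.3 and 45.9 CPM at P16 (log2 fold change -2.58 with SE 0.17, adjusted p = 2.56e-07). Scn2a1, listed under this older symbol for Nav1.2, stood at -0.94 (SE 0.21, adjusted p = 0.00242) without a call. Of the beta subunits, Scn4b, which supports resurgent current, had 5.13, 5.04, 7.13 and 2.5 CPM at P0 and 271, 281 and 308 CPM at P16 (log2 fold change 6.12 with SE 0.27, adjusted p = 1.48e-08), Scn2b rose by 2.80, and Scn3b had a log2 fold change of -2.58.

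HCN channels carry the current that speeds integration in SOC neurons. Of 5 listed genes 3 rose and 1 fell (median 1.61). Pex5l, which encodes an auxiliary protein of these channels, had 38.8, 37.6, 39.7 and 33.6 CPM at P0 and 272, 266 and 220.2 CPM at P16 (log2 fold change 3.03 with SE 0.15, adjusted p = 2.7e-08). Hcn2 rose by 1.61. Its call was lost without both libraries that stood apart (1.21, adjusted p = 0.0102), a fit in which set and age cannot be told apart. Hcn3 had 34.6, 45.9, 46.4 and 22.8 CPM at P0 and 3.62, 2.84 and 7.56 CPM at P16 (log2 fold change -2.77 with SE 0.36, adjusted p = 4.52e-05), the opposite direction to Hcn2.

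Among 15 calcium channel genes 1 rose (6.67%, against 8.49% of all genes) and 4 fell (26.7%, against 9.32%). The list's median was -0.52, or -0.17 with GC-adjusted offsets. The pore subunit of presynaptic P/Q-type channels, Cacna1a, had 41.4, 60.1, 65.4 and 30.1 CPM at P0 and 42.8, 50.6 and 67.2 CPM at P16 and was not called (0.37, SE 0.28, adjusted p = 0.287), and the N-type gene Cacna1b stood at -1.29. The beta subunits went opposite ways, Cacnb4 with a log2 fold change of 2.44 (SE 0.27, adjusted p = 1.4e-05) and Cacnb3 with -2.14 (SE 0.24, adjusted p = 1.57e-05). The low-threshold channel gene Cacna1h fell by 2.14 on the log2 scale.

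Pvalb, which encodes the calcium buffer parvalbumin of fast-firing neurons, had 10.7, 8.92, 8.42 and 4.50 CPM at P0 and 239, 204 and 205 CPM at P16 (log2 fold change 5.01 with SE 0.25, adjusted p = 2.75e-08). It was called among 17 calcium-binding proteins and calmodulin kinases. Of these 2 rose (11.8%, against 8.49% of all genes) and 1 fell (5.88%, against 9.32%). The list's median was -0.18, or 0.21 with GC-adjusted offsets. Calb2 (calretinin), which marks terminals of the auditory brainstem, had 81.1, 73.4, 73.0 and 55.1 CPM at P0 and 135, 151 and 127 CPM at P16 and was not called (1.23, SE 0.14, adjusted p = 1.98e-05). Of 9 genes of the sodium-potassium pump, which restores gradients after firing, 3 rose and none fell (median 1.11), or 5 with GC-adjusted offsets. Among them Atp1b1, a beta subunit, had 531, 571, 647 and 566 CPM at P0 and 1846, 1799.9 and 1235 CPM at P16 (log2 fold change 1.77 with SE 0.22, adjusted p = 2.98e-05).

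In the gap junction, immediate early, neuropeptide and neurotrophin lists the share of genes called in either direction was near the 17.8% of all genes. Of 8 gap junction genes only Gjc3, a connexin of oligodendrocytes (3.81), rose and only Panx1 fell (-1.90), with a median of -0.22 (0.03 with GC-adjusted offsets). Gjd2, the connexin of electrical synapses between neurons, stood at -0.54. Of 10 immediate early genes, which neuronal activity and handling of the animal both induce, Arc rose (5.52, 6.80, 6.78 and 3.25 CPM at P0 and 19, 16.5 and 24.1 CPM at P16) and Nr4a2 fell (-1.75), and Fos (0.86) and Egr1 (1.54) were not called. Of 19 neuropeptide and granin genes 4 fell and none rose (median -0.66, -0.09 with GC-adjusted offsets), with 1 falling without P16 replicate 2 and 2 falling without P16 replicate 1. Nts, which encodes neurotensin, fell (-2.26, and -1.53, adjusted p = 5.64e-06, without P0 replicate 4). Of 18 genes of neurotrophin and growth factor signalling 3 rose and 1 fell (median -0.33, -0.14 with GC-adjusted offsets). Fgf1 had 18.8, 19.5, 28.0 and 14.9 CPM at P0 and 301, 288 and 247 CPM at P16 (log2 fold change 4.05 with SE 0.23, adjusted p = 6.77e-08), and the neurotrophin receptor gene Ngfr fell by 3.13. Bdnf (-0.16), Ntf3 (-1.60) and their receptor genes Ntrk2 (0.13) and Ntrk3 (0.40) were not called.

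Outside the lists, genes were named by rank of fold change, by gain or loss in CPM and among noncoding RNAs. The 12 genes of largest rise at a P16 mean of at least 20 CPM were mostly of oligodendrocytes (Opalin, Klk6, Mog, Tmem125, Ermn, Mobp and Trf). The others included Kcng4, a silent potassium channel subunit, with 0, 0, 0 and 0.113 CPM at P0 and 61.2, 69.4 and 80.1 CPM at P16. Cyp2j12, a cytochrome P450, had 0, 0, 0 and 0.0378 CPM at P0 and 21.6, 21.3 and 18.9 CPM at P16. In P0 replicate 4 both rested on at most 3 counts. Etnppl, an enzyme of astrocytes, had 0, 0, 0 and 0.151 CPM at P0 and 74.8, 70.2 and 34.5 CPM at P16.

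The largest falls at a P0 mean of at least 20 CPM were led by H19, the imprinted noncoding RNA of fetal growth (chr7:142575529-142578143), with 259, 235, 196 and 153 CPM at P0 and 2.35, 1.94 and 6.63 CPM at P16 (log2 fold change -5.62 with SE 0.38, adjusted p = 2.61e-07). Without P16 replicate 3 it stood at -6.28, adjusted p = 6.13e-08. Next came Cxadr, an adhesion molecule and virus receptor, with 917, 898, 822 and 1447 CPM at P0 and 29.0, 25.3 and 32.8 CPM at P16 (log2 fold change -4.89 with SE 0.31, adjusted p = 1.79e-07). Igfbpl1, a secreted protein of young neurons, had 24.3, 22.7, 13.3 and 65.3 CPM at P0 and 0.557, 0.608 and 2.17 CPM at P16 (log2 fold change -4.59 with SE 0.61, adjusted p = 5.66e-05). Its value was -3.89, adjusted p = 1.21e-05, without P0 replicate 4, the library with the most forebrain markers, and -5.44, adjusted p = 8.6e-05, without P16 replicate 3. Cxadr was also highest in P0 replicate 4, and the part of forebrain tissue in either value was not tested. Islr2 (-4.51), a membrane protein of growing axons, Zfp57 (-4.33), a guardian of imprints, and St8sia2 (-4.26), which makes the polysialic acid of migrating neurons, came after them, and Mex3a (-4.21), an RNA-binding protein, was also among the 12. Among the largest gains in CPM were Mbp and the mitochondrial rRNA mt-Rnr2, with mean gains of 12119 and 10844 CPM, and the largest losses were those of Tuba1a, Tubb5 and Tubb2b. mt-Rnr2 had 1411, 3148, 3278 and 2929 CPM at P0 and 18089.8, 16272 and 6245 CPM at P16 (log2 fold change 2.62 with SE 0.48, adjusted p = 0.000634). Ribosomal RNA was depleted before sequencing, and the part of that depletion in the counts of mt-Rnr2 was not tested. Counts of all mitochondrially encoded genes took 0.771 to 1.33% of the P0 and 1.92 to 3.73% of the P16 libraries.

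Of noncoding RNAs Gm19461 (chr1:133250398-133269808) had 0 counts at P0 and 7.45 to 9.38 CPM at P16, at least 11.7-fold higher, and Gm13629 had 0, 0, 0 and 0.302 CPM at P0 and 7.28, 7.98 and 7.17 CPM at P16. Gm26673 also rose, but it overlaps genes on the opposite strand over 69.7% of its exons and is therefore uncertain. The falls after H19 were smaller, from -2.43 for Gm2061 to -2.15 for Gm12371.

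The same ages were sequenced in the cochlea (6 libraries), the organ of hearing, whose nerve fibres are myelinated by Schwann cells. A test of the difference between the organs' changes, over 15347 genes, at the same adjusted p and a ratio of fold changes over 2.5, found 1217 genes (7.93%) whose change was higher in the SOC and 1555 (10.1%) whose change was higher in the cochlea. Of the 26 myelin genes 20 had the higher change in the SOC by this test and none had it in the cochlea. A higher change in the SOC does not exclude a cochlear rise. In the cochlea the log2 fold change of Mbp was 4.28, that of Mag 4.78 and that of Mog 0.55. Cldn11, the tight junction protein of central myelin, differed by 6.27 (SE 0.28, adjusted p = 1.29e-11), with a log2 fold change of -0.31 in the cochlea. Myrf differed by 6.56 (SE 0.48, adjusted p = 4.19e-09). RNA and library kits and mouse substrain went with the organ and cannot be told apart from it, so only changes within an organ were compared. Prx, a scaffold protein of Schwann cells, went the other way, with log2 fold changes of -2.85 in the SOC and 4.83 in the cochlea, a difference of -7.68 (SE 0.45, adjusted p = 3.27e-10). Of the 40 cell cycle genes in this test 1 had the higher change in the SOC and 3 in the cochlea, and of the 24 immature neuron genes 0 and 9. Grin2a differed by 5.31 (SE 0.57, adjusted p = 6.4e-07), with the higher change in the SOC. For Kcna1, which rose in the SOC, the difference was -0.65 (SE 0.33, adjusted p = 0.125) and did not pass, and for Pvalb it was 1.66 (SE 0.32, adjusted p = 0.000376).

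Genes of tissues next to the SOC were followed as well. Of 10 choroid plexus genes 7 fell and 1 rose (none rose without P0 replicate 1, P16 replicate 1 or P16 replicate 2; median -3.02, -2.79 with zeros at that count), and they summed to 481, 454, 229.7 and 687 CPM at P0 and 29.4, 23.3 and 90.0 CPM at P16. Ttr, the thyroxine carrier that the plexus secretes, had 429, 398, 189 and 628 CPM at P0 and 7.28, 1.01 and 65.6 CPM at P16 (log2 fold change -3.91 with SE 1.09, adjusted p = 0.00964); the call was lost when any library but P16 replicate 3 was left out, with the weakest value without P16 replicate 1 (-3.48, adjusted p = 0.0422), and without P16 replicate 3 the value was -6.31, adjusted p = 0.000599. Of 9 Schwann cell genes 4 fell and 2 rose, and Prx had 12.1, 9.85, 9.70 and 6.09 CPM at P0 and 1.55, 0.527 and 1.18 CPM at P16. Of 10 cranial motor neuron genes 5 fell and none rose, with Isl1 at -2.98 but the cholinergic gene Chat at 1.31 without a call. Of 7 muscle and cartilage genes 4 fell (median -2.38, -1.85 with zeros at the count they can hide), and the list summed to 43.7 to 125 CPM at P0 and 14 to 34.2 CPM at P16.

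Of 15 meningeal genes 3 fell and 1 rose (median -0.88), and in the fit without P16 replicate 3, 6 fell. Collagen Col1a1 stood at -0.39 without a call. Of 12 cerebellum genes 6 rose and 1 fell (median 1.28); in the fit without P16 replicate 3, 4 rose and 3 fell. Gabra6, which cerebellar granule cells carry, had 0, 0, 0 and 0.0756 CPM at P0 and 8.87, 4.01 and 23.7 CPM at P16, highest in P16 replicate 3. Of 5 forebrain genes 2 fell, and 1 fell when any P16 library was left out. None of 7 erythroid genes and none of 5 Y-linked genes and Xist was called. The part of these neighbouring tissues in the other results was not tested.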

How the data were processed

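Total RNA of the SOC was extracted with the innuPrep miRNA Kit and sequenced after TruSeq Stranded Total RNA preparation with Ribo-Zero Gold. The authors deposited 1 table of raw read counts per gene (22734 genes, 20 libraries), and the submitters' processing notes name STAR 2.5.3a, HTSeq, DESeq2 and the mm10 build; the strand setting of the counting and the annotation release are not given in the sources used here. By their pattern of zeros the deposited counts were joined from sets of libraries filtered separately, a step inferred here, so that a 0 can hide up to 20 counts. No column went unused. Gene positions, exon lengths and biotypes came from GENCODE M21 (99.6% of identifiers matched).

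Genes over 0.5 CPM in at least 3 libraries of P0 or of P16 were tested in a fit of all 11 SOC libraries with edgeR 4.0.16 (R 4.3.3; glmQLFit and glmQLFTest, TMM factors 0.831 to 1.07 in the 7 libraries), with age as the only term, Benjamini-Hochberg adjustment over all 15917 genes and 8 residual degrees of freedom before moderation. A call needed an adjusted p below 0.01, a fold change over 2.5 and no overlap of the ages' libraries. The difference between organs was tested in a fit of all 20 libraries. Printed CPM are taken over the library total without TMM scaling, RPKM divide them by exon length, and the SE is the absolute log2 fold change over the square root of the F statistic. Libraries held 20843679 to 28048053 counts, where 3 counts are 0.107 to 0.144 CPM and 20 counts 0.713 to 0.960 CPM; such limits cover counting error only. On simulated counts with known changes, 100% of genes changed by 4-fold were recovered among the 15917 genes of this comparison. The simulation gave every gene the same dispersion and changed only genes above a minimum level. It held no GC split, zeros by joining or neighbouring tissue. It therefore checks the code and cannot give the share of true changes recovered in the real libraries. Members and lists were chosen with earlier results of these data known. Further genes were named by rule: the 12 largest fold changes in each direction averaging 20 CPM or more at the higher age, the 8 largest gains and losses in CPM, and the 5 largest changes among noncoding RNAs averaging 5 CPM or more there; of these, the ones described were picked with their values in view. Some members are counted in their lists but not reported by name here.

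Nothing in the labels says that pools came from separate litters, so p-values measure the spread between these libraries, which may be partly technical. No pair of libraries was identical (chi-square per degree of freedom 7.35 to 101). Alternatives were DESeq2 1.42.0 factors and test, upper-quartile factors, other filters, fewer libraries, a replicate block, the set of libraries as a term, and GC-adjusted offsets; leaving out both libraries that stand apart, and CPM ratios within 1 set, were chosen after seeing the data. Tables and figures used Python 3.11.15, pandas 2.3.3 and matplotlib 3.10.9.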

Additional observations from a re-analysis of the deposited data

Results flagged for a closer look

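Among the genes named in the report, 209 could be examined for a P0 library that stands far from the other 3 of its age, by setting its distance from the nearest other library against the whole range; 9 further genes were left out because joining had emptied some of their P0 values. This found 18 genes (8.61%), of which P0 replicate 4 was the distant library in 15; chance alone marks about 1 in 20 groups. P0 replicate 4 was high for Cxadr at 1447 CPM against 822 to 917, Dcx at 544 CPM against 305 to 340.3, Epha4 at 416 CPM against 247 to 263, Ermn at 3.59 CPM against 1.15 to 1.51, Kcnv1 at 37.4 CPM against 13.9 to 16.6, Ntf3 at 5.75 CPM against 1.15 to 1.68, Nts at 70.3 CPM against 19.3 to 21.9, Slc12a2 at 126 CPM against 89.3 to 93.4 and Vcan at 218 CPM against 122 to 137 CPM in the other 3 libraries. It was low for Aldh1l1 at 123 CPM against 204 to 219, C1qb at 12.6 CPM against 20.2 to 21.4, Epha8 at 19.9 CPM against 39.5 to 40.0, Gjd2 at 73.0 CPM against 97.1 to 102, Nkx6-2 at 4.27 CPM against 10.1 to 11.2 and Ntn1 at 73.8 CPM against 142 to 151 CPM. In other libraries the distant values were the low value of Ccnd1 in P0 replicate 2 (43.0 CPM against 47.1 to 47.9), the high value of Enpp6 in P0 replicate 3 (21.7 CPM against 13.2 to 14.1) and the low value of Gria4 in P0 replicate 1 (271 CPM against 285 to 288). Of the 15 genes for which P0 replicate 4 was the distant library, none gained or lost a call without it.

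The change from P0 to P16 differed between the SOC and the cochlea for 2772 of 15347 genes, by a test of the difference itself in edgeR.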

How the results depend on the processing

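The 1352 higher and 1483 lower calls ranged from 1195 to 1853 and from 1097 to 1934 over all alternatives, and no called gene changed sign in any of them. GC-adjusted offsets gave 1853 and 1097, upper-quartile factors 1195 and 1692 (median of all genes -0.15), the DESeq2 test 1315 and 1625, only genes with counts in every set 1196 and 1159 of 14603 tested, and the set of libraries as a term 1474 and 1526, which kept 2490 of the 2835 calls. Leaving out 1 library gave 1248 to 1460 higher and 1275 to 1728 lower, and 286 to 318 called members of the lists against 301. Leaving out both libraries that stand apart gave 330, in a fit where set and age cannot be told apart. The interaction count of 2772 ranged from 2636 to 2884 without 1 library. Equal replicate numbers at the 2 ages name libraries and do not pair them. Deviations of same-numbered libraries correlated at -0.21, -0.28 and 0.38 across genes, and not every library correlated best with its own number. P0 replicate 4 correlated at 0.55 and 0.40 with P16 replicates 1 and 2, and at -0.60 with P16 replicate 3. P0 replicates 1 to 3 correlated at 0.30 to 0.47 with P16 replicate 3 and negatively with P16 replicates 1 and 2. With the number as a replicate block, 1453 genes were higher and 1600 lower, 306 list members were called, and 3071 genes passed the interaction. Of the 222 genes named in the report and examined here, 6 lost their call under at least 1 alternative (Kcnc1, Ttr, Aqp4, Hcn2, Mcm7 and Msmo1); the cause was not tested. Uncalled genes near the thresholds gained a call most often under alternatives for Gria3, Egr1 and Cacna1b (5 each). Depth limits genes under about 1 CPM, where a 0 can be an effect of joining.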

Other observations

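Histone cluster genes, which make the histones of DNA replication, were chosen after their values were seen. Of 57 tested, 47 fell and none rose (median log2 fold change -2.43), and they summed to 2386, 2189.8, 1702 and 1875 CPM at P0 and 440.1, 444 and 784 CPM at P16. All P16 sums lay below all P0 sums, with the highest of them in P16 replicate 3. Many copies of these genes are near-identical, so how counts were shared among them is uncertain.

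Of 15 mitochondrially encoded genes, also chosen after their values were seen, 2 rose, the rRNA genes mt-Rnr1 and mt-Rnr2, and none fell (median 0.88). The part of ribosomal RNA depletion in the counts of mt-Rnr1 and mt-Rnr2 was not tested. The group summed to 7708, 12869, 13326 and 11941 CPM at P0 and 37344, 34494 and 19237 CPM at P16.

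The pituitary hormone genes Pomc, Gh and Cga, chosen in the same way, summed to 3.02, 1.43, 3.19 and 1.32 CPM at P0 and 12.1, 39.8 and 258 CPM at P16. Pomc, the precursor of several pituitary peptides, had 2.40, 1.29, 1.51 and 0.945 CPM at P0 and 2.63, 2.39 and 224 CPM at P16, with the high value in P16 replicate 3, and was not called. Gh and Cga were called higher. Cga had 0.756 CPM in P16 replicate 1, a level that its zeros in P0 replicates 1 to 3 can hide. The pituitary is not part of the SOC, and its part in other results was not tested.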
